A study of Mus musculus with 10 samples.

Results

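Cyp1b1 and 5 genes of the aryl hydrocarbon receptor pathway, Cyp1a1, Ahr, Ahrr, Arnt and Tiparp, were followed through osteoblast differentiation of MC3T3-E1 cells, 6 genes of the 40620 in the count table. The members were chosen by name, by their Ensembl gene IDs, and Cyp1b1 was picked because it was among the largest falls at 14 d against confluent cells. MC3T3-E1 is a mouse pre-osteoblast line, and the study used 1 subclone of it. RNA was sequenced from 2 replicates, A and B, at each of 5 stages, 10 samples in all. Subconfluent cells were in growth medium and confluent cells marked day 0, while the 24 h, 14 d and 21 d cells were kept in differentiation medium with ascorbic acid and β-glycerophosphate. No gene was altered in any group.

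The aryl hydrocarbon receptor, encoded by Ahr, is a ligand-activated transcription factor of the bHLH-PAS family that waits in the cytoplasm with chaperones. Once a ligand binds, it enters the nucleus, pairs with the protein encoded by Arnt and binds DNA at sites with the core GCGTG, and Cyp1a1 and Cyp1b1 are among its best known targets. Ahrr and Tiparp are also targets and their products restrain the receptor, the first as a repressor that competes for Arnt and the second as a mono-ADP-ribosyltransferase. Cyp1b1 is a cytochrome P450 that oxidises oestradiol, retinoids and polycyclic hydrocarbons.

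The promoter of Cyp1b1 is shown because Cyp1b1 had the largest fall of the 6 at 21 d. It is the 250 bases before the RefSeq start on GRCm38.p6, chr17:79715062-79715311 on the minus strand, and the capitals mark the core motif, which is read here on the complementary strand.
Cyp1b1 promoter: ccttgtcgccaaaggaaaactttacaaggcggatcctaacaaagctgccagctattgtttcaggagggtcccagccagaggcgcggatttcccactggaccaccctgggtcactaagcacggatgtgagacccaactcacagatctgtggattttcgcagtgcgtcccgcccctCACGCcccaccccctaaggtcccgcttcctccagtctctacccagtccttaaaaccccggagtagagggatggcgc

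The core also lay in the windows of the other 4 members that the promoter table holds, and 25 bases around each are shown so that the flanking letters can be compared, with the core in capitals. The Cyp1a1 site is at chr9:57697549-57697573, the 3 Ahrr sites are at chr13:74292424-74292448, chr13:74292399-74292423 and chr13:74292344-74292368 on the minus strand, the Arnt site is at chr3:95434351-95434375 and the Tiparp site is at chr3:65528267-65528291.
Cyp1a1: agataaggagGCGTGgccaacagac
Ahrr site 1: ttgaaagggcGCGTGgcaggcaggg
Ahrr site 2: acaaggatgtGCGTGcgccctctgc
Ahrr site 3: ggggcggctcGCGTGctggggtggg
Arnt: atagtttgggGCGTGtcttctgccc
Tiparp: ccgtccggagCACGCgcacgggagg

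Both strands were searched for GCGTG and for the longer TNGCGTG, which contains it, in windows from 250 bases before to 50 after the start. GCGTG was in 32.4% of all 32851 windows of the same length and TNGCGTG in 5.07%. Ahrr held GCGTG 3 times, as 3.91% of windows do at least, and 1 of its copies extended to TNGCGTG. The other 4 held GCGTG once each and none held TNGCGTG. A match is a description of letters, not of binding. Ahr is not shown. The RefSeq start of Cyp1a1 lies inside the gene as GENCODE draws it.

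Between 44736156 and 162939333 reads were counted on genes per sample, and the counts were fitted together in edgeR. The indexes in the libraries of the first 3 stages differed from the indexes of the late stages, 14 d and 21 d. A step across that border therefore cannot be told apart from the difference in indexes. The labels do not say whether the libraries were made in separate sets. The replicates at 24 h differed from each other more than those of other stages, since the log2 ratio of A to B had an SD of 0.674 over 16133 genes at 24 h and of 0.282 to 0.321 at the other stages. The osteoblast markers Ibsp and Bglap had stage means of 15.9 and 2.5 RPKM in subconfluent cells and of 4227 and 1115 RPKM at 14 d, while Ptprc, Adgre1, Myod1, Myog, Cdh5, Kdr, Plin1 and Cidec had at most 3 counts in every sample. Other markers of those lists were detected. Of the chondrocyte list Col2a1 was at 33.1 to 210 RPKM, whereas Acan reached at most 0.0206 RPKM and Col9a1 at most 0.584 RPKM. Of the macrophage list Csf1r was at 1.83 to 3.19 RPKM and Cd68 at 0.464 to 0.936 RPKM. The adipocyte gene Fabp4 was highest at 24 h, with a stage mean of 0.995 RPKM. Their part in the results was not tested.

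Cyp1b1 (chr17:79701537-79715061, protein coding) was present in growing cells and low in late cultures. Its level, in RPKM as deposited, a read count scaled by gene length and by library, was 9.72 in replicate A and 10.0 in replicate B of subconfluent cells, 8.40 and 7.67 in confluent cells, and 5.68 and 8.39 at 24 h. It was 0.436 and 0.455 at 14 d and 0.591 and 0.732 at 21 d. All 6 early samples lay above all 4 late ones, and the counts behind the late values were 201, 77, 106 and 300. In these bulk samples, fewer cells that express a gene and less of its RNA in each cell cannot be told apart. In order of stage means of CPM, counts scaled to library size with TMM factors, subconfluent cells were highest, then confluent, 24 h, 21 d and 14 d, and only confluent and 24 h overlapped among neighbours.

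The fall from confluent cells to 14 d chose Cyp1b1 and is given as a description. It was -3.96 ± 0.19 (log2 fold change ± SE, n = 2 per stage), or 15.5-fold, and was the sixth largest fall of the 12081 genes that averaged 5 CPM or more over the samples. The gene just above it in that order fell by 4.23 and the gene just below by 3.72 on the log2 scale. Values for steps that share samples with this contrast are also without a test. Cyp1b1 differed by -0.32 ± 0.16 from subconfluent to confluent cells, by -0.11 ± 0.16 from confluent cells to 24 h, by -3.85 ± 0.19 from 24 h to 14 d and by 0.51 ± 0.18 from 14 d to 21 d, all as log2 fold change ± SE. Without replicate A at 24 h the step from confluent to 24 h was 0.10, and without replicate B it was -0.34. 

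The comparison of 21 d with subconfluent cells contrasts no sample of the contrast that chose Cyp1b1, but its SE and p come from a fit of all 10 samples. There Cyp1b1 fell by 3.77 ± 0.19 on the log2 scale, or 13.7-fold (edgeR quasi-likelihood test, Benjamini-Hochberg adjusted p = 8.8e-06). With only the 2 groups in the fit the change was -3.77 (edgeR adjusted p = 4.6e-05). The fall was called under every one of the 16 alternatives, with values from -3.95 to -2.71. It ranked 59 among the falls of the same 12081 genes, of which 1603 fell more than 2-fold in this comparison.

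**Figure D1:**
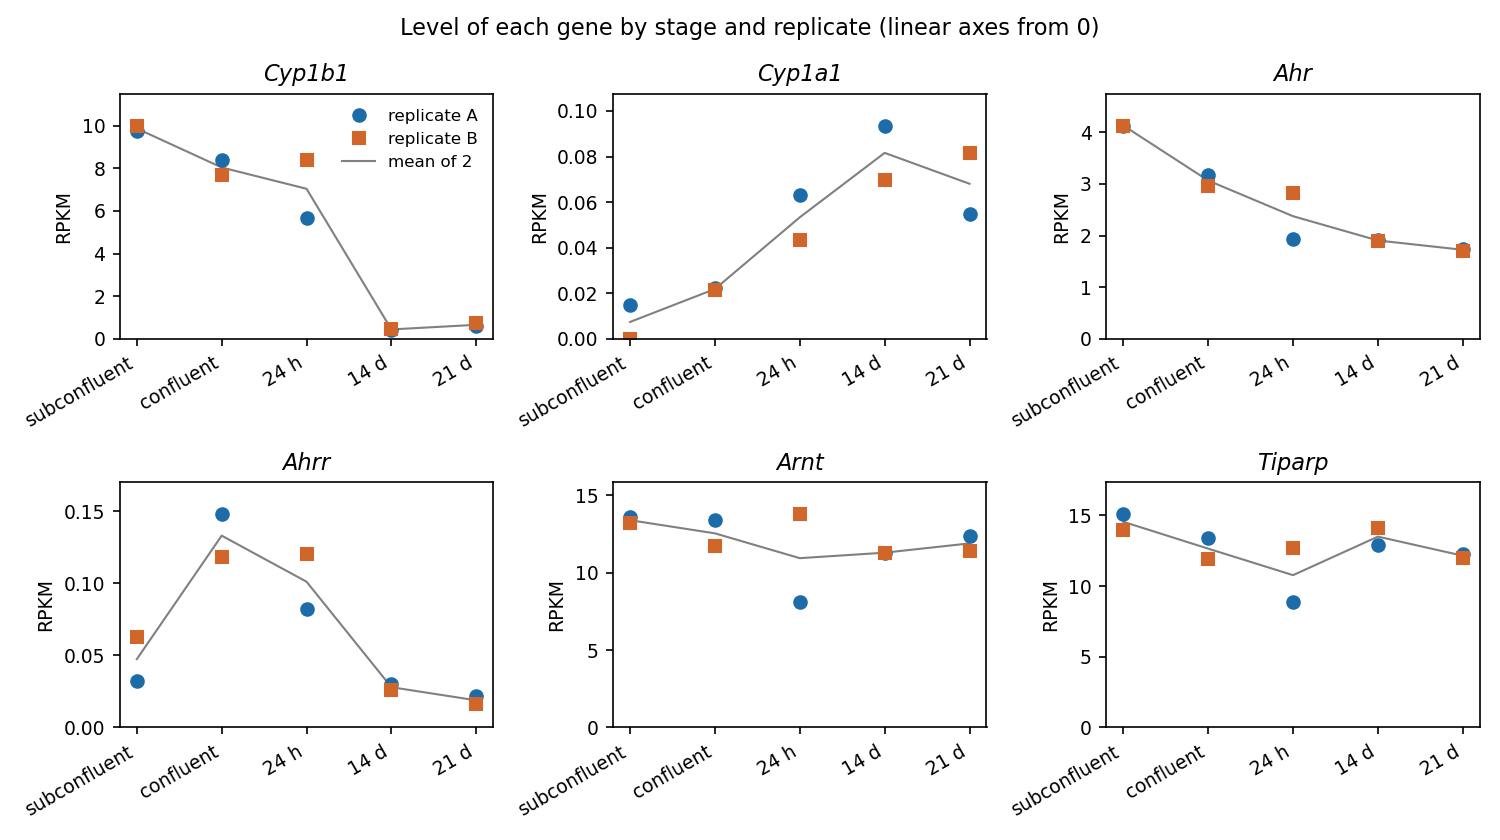
RPKM (linear axes from 0) of the 6 genes at the 5 stages, with circles for replicate A, squares for replicate B and a line through the mean of the 2. Cyp1b1 sits between 5.68 and 10.0 RPKM in the 6 early samples and between 0.436 and 0.732 RPKM in the 4 late ones, while Arnt and Tiparp show no such step.

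The receptor gene itself, Ahr (chr12:35497974-35535038), was at its highest before confluence and lower at each later stage mean. It was at 4.13 RPKM in both subconfluent replicates, 3.18 and 2.95 in confluent cells, 1.93 and 2.82 at 24 h, 1.92 and 1.89 at 14 d and 1.75 and 1.70 at 21 d. Neighbouring stages overlapped only between 24 h and 14 d, in CPM. At 21 d Ahr was 2.21-fold below subconfluent cells (-1.14 ± 0.14 log2 fold change ± SE, edgeR adjusted p = 5.0e-04), a call held by all 16 alternatives with values from -1.30 to -0.91. Of the single steps none was called. The step to confluence was -0.46 ± 0.14 (edgeR adjusted p = 0.16) and stayed uncalled under 13 of 16 alternatives. It passed without the 24 h samples (edgeR adjusted p = 0.0084) and with the 2 groups alone (edgeR adjusted p = 0.037). It also passed with only replicate A of 24 h left out of the fit, an alternative chosen after seeing the data. With replicate A alone at 24 h the step from confluent to 24 h was -0.51 and that from 24 h to 14 d 0.01. With replicate B alone at 24 h they were -0.08 and -0.39. Ahr shares exon bases with the lincRNA Gm48236 on the other strand, and how the counting treated strand is not given in the sources used here.

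Arnt (chr3:95434388-95497240), the partner of the receptor, stayed between 8.09 and 13.8 RPKM. It was at 13.6 and 13.2 RPKM in subconfluent cells, 13.4 and 11.7 in confluent cells, 8.09 and 13.8 at 24 h, 11.3 in both replicates at 14 d and 12.4 and 11.4 at 21 d. The lowest and highest samples were the replicates at 24 h. The log2 fold change at 21 d against subconfluent cells was -0.05 with a 95% interval of -0.51 to 0.41 (edgeR adjusted p = 0.85), so changes of either sign inside that range are not excluded. With replicate A alone at 24 h the Arnt step from confluent to 24 h was -0.48 and the next step 0.51, whereas with replicate B alone they were 0.18 and -0.12.

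By stage mean, the level of the receptor gene was a smaller share of that of its partner at each later stage. In subconfluent cells the ratio of Ahr to Arnt in RPKM was 0.309 ± 0.0069 (SD, n = 2). At confluence it was 0.244 ± 0.011, then 0.221 ± 0.025 at 24 h, 0.168 ± 0.0023 at 14 d and 0.145 ± 0.0064 at 21 d. The replicates of 24 h, at 0.239 and 0.204, lay closer together in this ratio than in either level. They overlapped those of confluent cells, at 0.237 and 0.252. The ratio of Cyp1b1 to Ahr was 2.39 ± 0.044 before confluence, 2.62 ± 0.028 at confluence and 2.96 ± 0.027 at 24 h, and then 0.234 ± 0.010 at 14 d and 0.384 ± 0.065 at 21 d. The ratios carry no test.

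Cyp1a1 (chr9:57687928-57703824), the classical inducible target, was barely detected. It had 4 and 0 counts in subconfluent cells, 2 and 6 in confluent cells, 14 and 9 at 24 h, 22 and 6 at 14 d and 5 and 17 at 21 d. No sample exceeded 0.0936 RPKM. Pooled over each stage and divided by total counts it was 0.0207 CPM in subconfluent cells (exact 95% Poisson interval 0.00563 to 0.0529) and 0.129 at 21 d (0.0806 to 0.195), intervals that cover counting error only. The pooled rate at 21 d was 6.22 times that of subconfluent cells, with an exact interval of 2.11 to 24.8, and the fitted change of 2.79 ± 0.75 on the log2 scale was called (edgeR adjusted p = 0.017) but not without replicate B at 21 d (edgeR adjusted p = 0.11). Cyp1a1 passed the filter on low counts only through samples from 24 h on, where it was higher, so this call is a description. It was not called in any single step.

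Ahrr (chr13:74211118-74292331), the repressor, was also low and was highest around confluence. It had 31 and 18 counts in subconfluent cells, 47 and 119 in confluent cells, 65 and 88 at 24 h, 25 and 8 at 14 d and 7 and 12 at 21 d. In RPKM that was 0.0323 and 0.0624, 0.148 and 0.118, 0.0821 and 0.12, 0.0298 and 0.0260, and 0.0215 and 0.0161. The 4 samples of confluent and 24 h cells lay above the other 6. The rise to confluence was 1.5 ± 0.39 (log2 fold change ± SE, edgeR adjusted p = 0.098) and stayed uncalled under 13 of 15 alternatives. It became a call without the 24 h samples (edgeR adjusted p = 0.043). The other call came with replicate A of 24 h left out of the fit, an alternative chosen after seeing the data.

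From 24 h to 14 d Ahrr fell by 1.70 ± 0.40 on the log2 scale, or 3.26-fold (edgeR adjusted p = 0.027), and the call was lost under 5 of 13 alternatives, among them without replicate A of 14 d (edgeR adjusted p = 0.14) and without replicate B of 14 d (edgeR adjusted p = 0.15). At 21 d it was 1.19 ± 0.42 below subconfluent cells on the log2 scale (edgeR adjusted p = 0.046), a call lost under 9 of 15 alternatives. These included leaving out replicate B of subconfluent cells (edgeR adjusted p = 0.21), replicate A of 21 d (edgeR adjusted p = 0.093) or replicate B of 21 d (edgeR adjusted p = 0.27).

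Tiparp (chr3:65528410-65555518), the ADP-ribosyltransferase, was, with Arnt, the most abundant of the 6 per length. It was at 15.1 and 14.0 RPKM in subconfluent cells, 13.4 and 11.9 in confluent cells, 8.85 and 12.7 at 24 h, 12.9 and 14.1 at 14 d and 12.3 and 12.0 at 21 d. Its 21 d level differed from subconfluent cells by -0.15 on the log2 scale (95% interval -0.48 to 0.19, edgeR adjusted p = 0.43). From 24 h to 14 d the change was 0.45 ± 0.14 (edgeR adjusted p = 0.071), which passed with DESeq2 (adjusted p = 0.030). With replicate A alone at 24 h this change was 0.63, and with replicate B alone it was 0.26. The step from confluent to 24 h was -0.35 with replicate A alone at 24 h, and 0.05 with replicate B alone. Tiparp shares exon bases with the pseudogene 4931440P22Rik on the other strand.

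Counted over the members, calls were few until the ends of the series were compared. Cyp1b1 was left out of the counts of the steps, which share samples with the contrast that chose it. Of the other 5, 0 were called from subconfluent to confluent cells, where 3.28% of the 20808 genes tested were called, and 0 from confluent cells to 24 h, where 5.15% were. Ahrr was the 1 call from 24 h to 14 d, beside 17.3% of all genes, and 0 of 5 were called from 14 d to 21 d, beside 9.72%. At an unadjusted p under 0.05 in edgeR the counts for the 4 steps were 2 (Ahr and Ahrr), 0, 2 (Ahrr and Tiparp) and 0. By DESeq2, called at the adjusted p, they were 0, 0, 2 and 0, with Cyp1a1 given no adjusted p in the steps with 0. Between 21 d and subconfluent cells 4 of 6 passed the threshold, beside 50.7% of all genes. One of the 4 is Cyp1a1, whose change is a description, and the others are Cyp1b1, Ahr and Ahrr. The share among the members is near the background. All 6 passed the filter on low counts, Cyp1a1 only as described above.

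**Figure D2:**
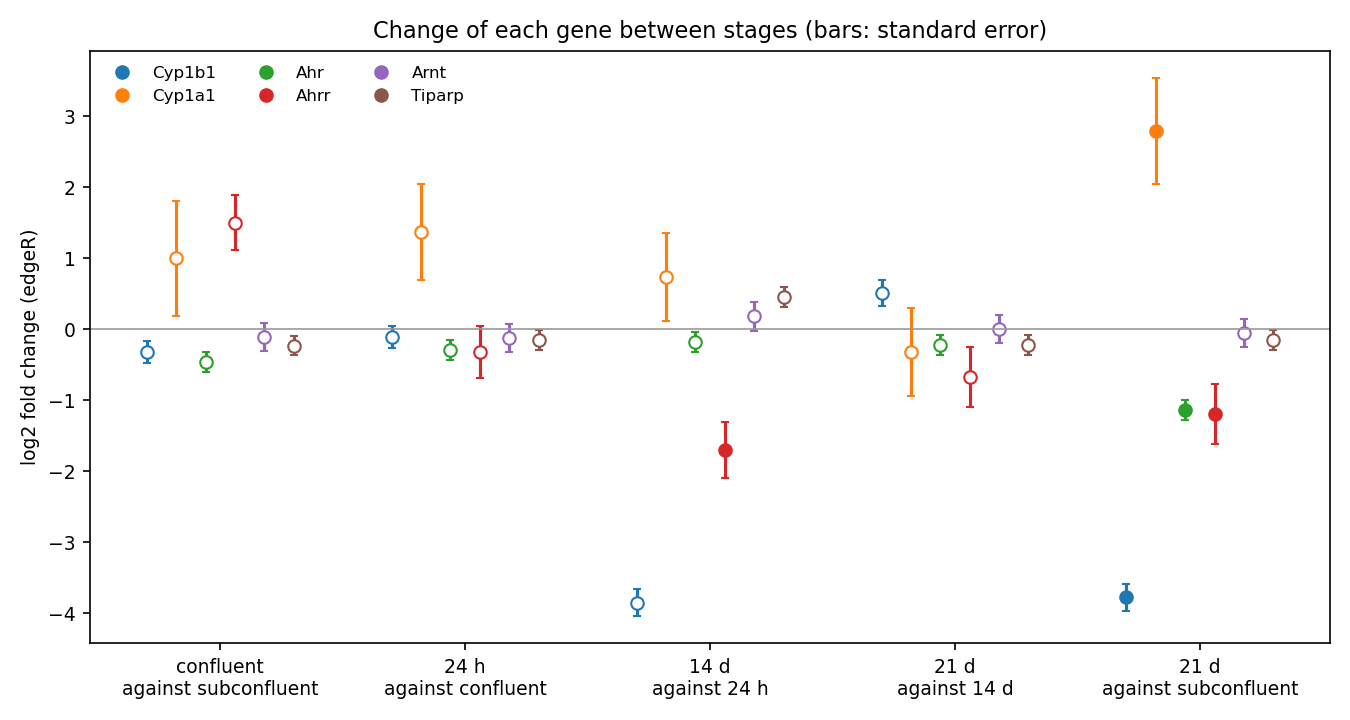
Log2 fold change from edgeR (vertical axis) of the 6 genes in 5 comparisons of stages, with bars of 1 standard error, filled points where the adjusted p was under 0.05 and open points otherwise. Cyp1b1 carries no test in the first 4 comparisons and is drawn open there. At 21 d against subconfluent cells Cyp1b1 is at -3.77 and Cyp1a1 at 2.79, while Arnt is at -0.05. The filled point of Cyp1a1 is a description, since no subconfluent sample of this gene reached the cutoff of the filter on low counts.

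Among the P450 genes Cyp1b1 ranked lower at the late stages than at the early ones, and its mean there was under 1 RPKM. The table held 99 protein coding genes with a Cyp symbol, of which 16 or 17 reached a mean of 1 RPKM at each stage. By stage mean of RPKM, Cyp1b1 ranked 9 in subconfluent and confluent cells, 10 at 24 h and 20 at both late stages. It made up 2.86% of the summed RPKM of these genes in subconfluent cells and 0.184% at 14 d. The sterol demethylase gene Cyp51 ranked first up to 14 d, from 169 RPKM in subconfluent cells to 53.1 at 14 d.

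The 2 genes that start or lie within 250 kb of the Cyp1b1 start fell, beside 23.5% of all genes tested. A link between these falls and that of Cyp1b1 was not tested. Rmdn2 was -1.03 ± 0.16 (edgeR adjusted p = 0.0015) and Atl2 -0.67 ± 0.10 (edgeR adjusted p = 0.0012) at 21 d against subconfluent cells, as log2 fold change ± SE. The start of Rmdn2 is 103.2 kb away and that of Atl2 181.1 kb away. These neighbours were looked up after the values of Cyp1b1 were seen.

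Other genes of the pathway were taken from 7 lists with 56 genes, of which 43 passed the filter. At 21 d against subconfluent cells 14 rose and 15 fell, 67.4% of those tested beside 50.7% of all genes. Over all genes tested, 27.3% rose and 23.5% fell, and the median change was 0.04. Of the 14 rises, those of Tdo2 and Cyp26a1, named after their values were seen, are descriptions, since no subconfluent sample of either reached the cutoff of the filter on low counts. Their highest counts were 13 and 30.

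The chaperones that hold the receptor in the cytoplasm fell in 3 of 4 cases, beside 23.5% of all genes, with a list median of -0.51 on the log2 scale. Hsp90aa1, the inducible cytosolic HSP90, went from 95.7 and 93.2 RPKM in subconfluent cells to 36.9 and 38.6 at 21 d, a change of -1.20 ± 0.10 (edgeR adjusted p = 6.4e-05). The constitutive Hsp90ab1 changed by -0.39 ± 0.10 and the co-chaperone gene Ptges3 by -0.62 ± 0.18.

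The bHLH-PAS relatives did not share a direction, with 2 rises and 2 falls among 6 tested of 7, beside 27.3% and 23.5% of all genes. Their median was 0.43. The 6 tested include Npas2, which was not called and was near the floor in subconfluent cells, at 0.0102 and 0.0 RPKM. Arntl, the clock factor BMAL1, rose from 4.58 and 3.93 RPKM to 11.8 and 11.4 (1.56 ± 0.13, edgeR adjusted p = 5.8e-05). Arntl2 rose by 0.60 ± 0.17. Arnt2, which encodes a close relative of Arnt and is named after its values were seen, went from 0.958 and 0.859 RPKM to 0.0718 and 0.0461 RPKM (-3.86 ± 0.26, edgeR adjusted p = 2.7e-05). Hif1a, the hypoxia factor that also pairs with Arnt, fell by 0.85 ± 0.21 on the log2 scale, from 29.9 and 26.9 RPKM to 14.6 and 14.4. Of the coactivators 3 of 5 fell, beside 23.5% of all genes, with a median of -0.57. Smarca4, the BRG1 chromatin remodeller, changed by -1.36 ± 0.13, Ncoa3 by -1.03 ± 0.14 and Med1 by -0.57 ± 0.12.

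Other receptor targets split evenly, with 4 rises and 4 falls among 10 tested of 16, beside 27.3% and 23.5% of all genes. Their median was 0.02. Xdh, which encodes xanthine dehydrogenase, went from 12.3 and 11.6 RPKM in subconfluent cells to 74.5 and 69.9 at 21 d (2.71 ± 0.16, edgeR adjusted p = 1.6e-05). Ugt1a6a, a glucuronosyltransferase whose locus shares exons with its relatives so that its counts are uncertain, rose from 0.871 and 0.942 to 9.20 and 9.01 RPKM (3.45 ± 0.28, edgeR adjusted p = 6.5e-05). Ereg, the growth factor epiregulin, fell from 1.88 and 2.26 to 0.546 and 0.427 RPKM (-1.98 ± 0.32, edgeR adjusted p = 0.0017). Nqo1, a quinone reductase gene often used as a readout of the receptor and named here after its values were seen, fell from 25.1 and 28.2 to 6.83 and 7.01 RPKM (-1.83 ± 0.10, edgeR adjusted p = 1.4e-05).

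**Figure D3:**
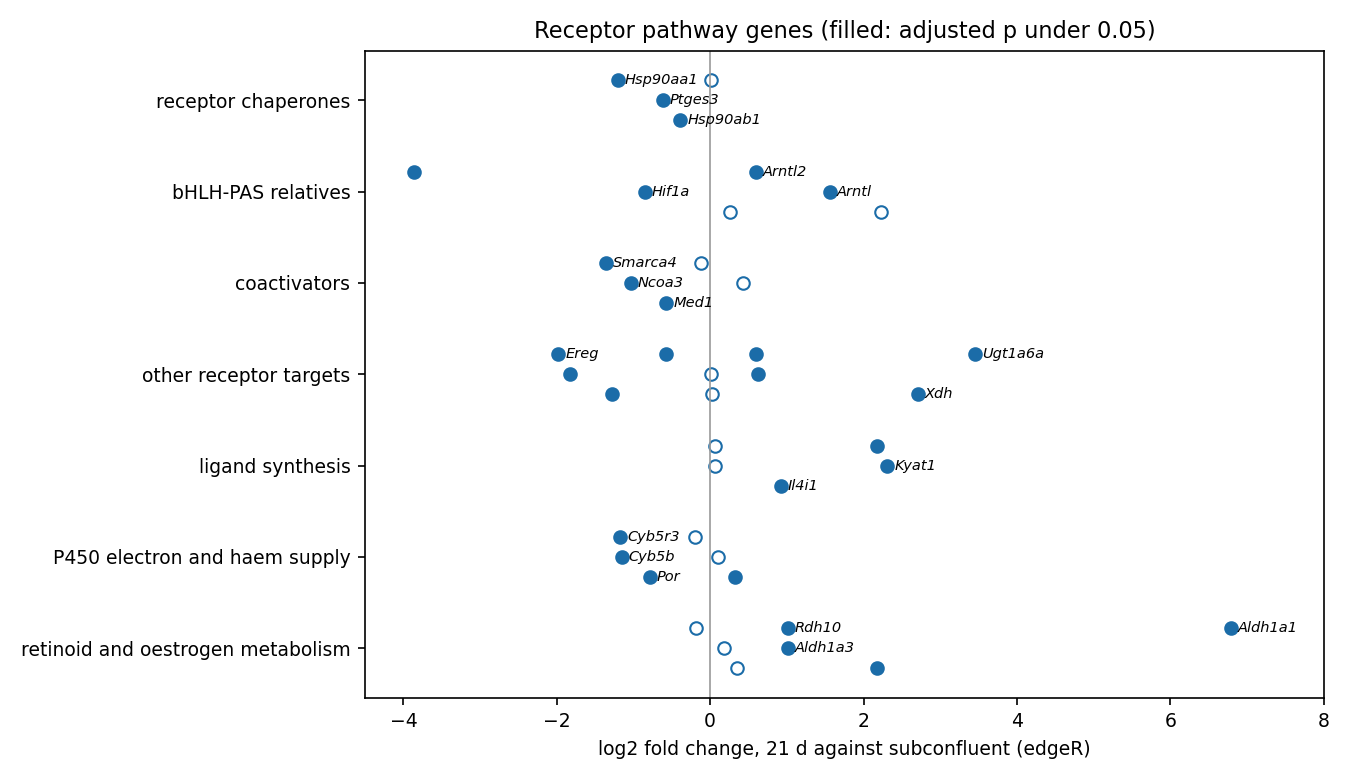
Log2 fold change from edgeR at 21 d against subconfluent cells (horizontal axis) of the 43 tested pathway genes in their 7 lists, 1 point per gene, filled where the adjusted p was under 0.05, with points spread vertically within a list for legibility and the genes of the naming rule labelled. Called chaperones and coactivators lie left of 0. Called genes of ligand synthesis and of retinoid and oestrogen metabolism lie right of 0, with Aldh1a1 farthest right at 6.79. The filled points of Tdo2 and Cyp26a1 are descriptions, since no subconfluent sample of either reached the cutoff of the filter on low counts.

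Genes that make receptor ligands from tryptophan or process them had 3 rises and 0 falls among 5 tested of 9. The rises include Tdo2, which passed the filter on low counts only through 21 d, where it was higher. The share therefore does not compare directly with the 27.3% rises over all genes. There were 0 falls also at an unadjusted p under 0.05 in edgeR and by DESeq2. Kyat1, a kynurenine aminotransferase gene, rose from 1.01 and 1.04 to 4.23 and 5.13 RPKM (2.31 ± 0.20, edgeR adjusted p = 8.7e-05), and Il4i1, an amino acid oxidase gene, from 0.665 and 0.792 to 1.28 and 1.25 RPKM. Ido1 and Aadat had 0 counts in every sample.

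The genes that supply P450 enzymes with electrons and haem had 1 rise and 3 falls among 6, beside 27.3% and 23.5% of all genes. Por, the P450 reductase, changed by -0.79 ± 0.09, Cyb5b by -1.15 ± 0.09 and Cyb5r3 by -1.17 ± 0.09, all with edgeR adjusted p-values of 3.4e-04 or lower. In the metabolism of retinoids and oestrogens, substrates of Cyp1b1, 4 of 7 tested of 9 rose and 0 fell, with a median of 1.01. The rises and the median include Cyp26a1, which passed the filter on low counts only through later stages, where it was higher. The share therefore does not compare directly with the 27.3% of all genes that rose. At an unadjusted p under 0.05 in edgeR and by DESeq2 0 fell as well. Aldh1a1, which makes retinoic acid, went from 0.105 and 0.142 RPKM in subconfluent cells to 1.49 and 1.70 at 24 h and 13.0 and 11.3 at 21 d (6.79 ± 0.22, edgeR adjusted p = 2.5e-06). Rdh10, which makes retinaldehyde, rose by 1.01 ± 0.11 and Aldh1a3 by 1.01 ± 0.15.

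The 6 genes whose profile over the 10 samples lay nearest to that of Cyp1b1, by Euclidean distance of centred log2 CPM among 12081 genes, were Fabp5, Gm14328, Gm6166, Gm13998, Syk and Alcam. Their distances ran from 1.52 to 2.13, against a median of 5.87 over all genes, and Pearson's r with Cyp1b1 from 0.946 to 0.97 over 10 samples that share their stages. Fabp5, a fatty acid binding protein gene, averaged 43.1 ± 1.09 RPKM (SD, n = 2) before confluence and 4.27 ± 0.164 RPKM at 14 d. The 3 Gm genes are annotated as processed pseudogenes, and 24.2%, 51.1% and 6.99% of the 50-base words of Gm14328, Gm6166 and Gm13998 occur letter for letter in Fabp5 transcripts, so their counts and those of Fabp5 are uncertain. Syk, a tyrosine kinase gene, went from 3.48 ± 0.00936 to 0.255 ± 0.0298 RPKM and Alcam, a cell adhesion gene, from 3.0 ± 0.25 to 0.194 ± 0.00271 RPKM between the same stages. Of the members, Ahr, Arnt and Tiparp were in this ranking and stood at 1649, 6635 and 7399, whereas Cyp1a1 and Ahrr were too low to enter it. Ranking by Pearson's r in place of distance gave 6 genes of which 0 were the same.

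**Figure D4:**
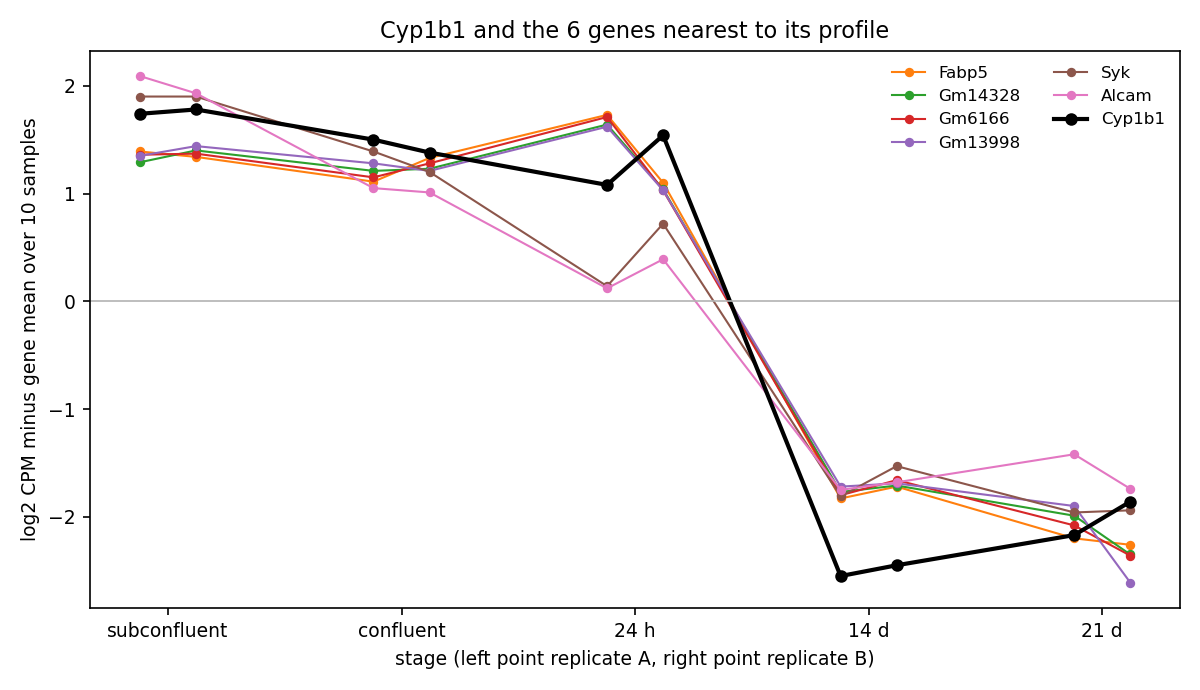
Log2 CPM minus the gene's mean over the 10 samples (vertical axis) for Cyp1b1 in black and the 6 genes nearest to it in colour, with replicate A at the left and replicate B at the right of each stage. All 7 lines lie above 0 in the 6 early samples and below 0 in the 4 late ones, and Cyp1b1 is lowest at 14 d.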

How the data were processed

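Whole-number read counts per gene were deposited without normalization, and the authors also deposited RPKM values, counts per length and per library size. The submitters' processing notes name TopHat2 2.0.9, FastQC, R 3.0.1 and mm10, and the counting tool is not given in the sources used here. Symbols and positions came from GENCODE M21 on GRCm38 and promoters from RefSeq (GRCm38.p6), which held 5 of the 6 members. Total counts were 44736156 to 162939333. For 2 libraries run in 2 lanes the merged column was used. In all, 0 value columns were unmapped and 1 incomplete RPKM row was left out.

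Counts of all 10 samples were fitted in edgeR 4.0.16 (R 4.3.3) with filterByExpr, which kept 20808 genes, TMM, 5 groups and the quasi-likelihood test, with Benjamini-Hochberg adjustment over all genes and calls at an adjusted p under 0.05. The script was tested on simulated data. The members and lists were chosen with earlier results of these data known. Named list genes were up to 3 called genes per list with the largest change at 21 d against subconfluent cells and a stage mean of at least 1 RPKM. The values of 1 list gene are not reported here. The labels do not say that replicates came from separate cultures, so p-values measure only the spread between these samples. Alternatives included DESeq2 1.42.0 and limma 3.58.1 on log2(RPKM + 1) and log2(RPKM + 0.1), other scalings and filters, other sets of samples, the lane sum, the replicate block and each replicate left out.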

Additional observations from a re-analysis of the deposited data

How the results depend on the processing

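Of 380 member values with a test recomputed under the alternatives, 338 kept direction and side of the threshold, 15 lost the call, 12 gained one and 15 changed sign. Cyp1a1 and Ahrr had few counts, at most 22 and 119 in a sample. The cause of the changes was not tested. Members called from subconfluent to confluent cells became 1 with only the 2 groups compared, 2 with no 24 h samples and 2 with replicate A of 24 h left out of the fit, an alternative chosen after seeing the data. Without a replicate, members called ranged from 0 to 3 for 24 h against confluent, from 0 to 3 for 14 d against 24 h and from 2 to 4 for 21 d against subconfluent. For 14 d against 24 h they were 0 with at least 10 counts in every sample (3 members tested), 0 with limma on log2(RPKM + 1), 0 with the 2 groups alone and 2 with DESeq2. For 21 d against subconfluent they were 2 with at least 10 counts in every sample (4 tested) and 2 with the 2 groups alone.

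All genes called, in the order of the comparisons, were 297, 443, 1245, 826 and 5740 at more than 2-fold, and pathway genes 18. DESeq2 called 1863, 2768 and 3255 for confluent against subconfluent, 24 h against confluent and 21 d against 14 d. The 2 groups alone gave 1108, 0 (1824 at an unadjusted p under 0.05), 319 and 5870 for the 4 steps. Without the 24 h samples 3299 and 5315 were called for the first and last step, and with replicate A of 24 h left out of the fit 3137 and 5159. Without a replicate, calls ranged from 120 to 340, 182 to 8629, 830 to 10063 and 734 to 886 for the 4 steps, the highest at 24 h coming without its replicate B. Scaling by library size alone shifted the median of all genes by -0.16 for 21 d against subconfluent and by -0.13 for 24 h against confluent.

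Same-lettered replicates did not pair, with correlations of their A to B ratios between -0.184 and 0.0995. The replicate block gave 351 and 601 calls for the first 2 steps, 0 members for 14 d against 24 h (Ahrr, adjusted p = 0.052) and 3 for 21 d against subconfluent (Ahrr, adjusted p = 0.07). Sign changes were all in genes not called, and without a replicate of 24 h or 21 d these steps ranged from -0.48 to 0.18 (Arnt) and -0.35 to 0.05 (Tiparp) for 24 h against confluent, from -0.39 to 0.01 (Ahr) and -0.12 to 0.51 (Arnt) for 14 d against 24 h and from -0.07 to 0.06 (Arnt) for 21 d against 14 d. They were Arnt at 0.18 and Tiparp at 0.05 for 24 h against confluent and Arnt at -0.12 for 14 d against 24 h without replicate A of 24 h, Ahr at 0.01 for 14 d against 24 h without replicate B, Arnt at 0.0 for 21 d against subconfluent, and Arnt for 21 d against 14 d, between 0.0 and 0.08 (0.08 by library size alone, 0.04 with no filter or the 2 groups alone, 0.02 with at least 10 counts in every sample, 0.07 with limma, 0.02 and 0.06 without a replicate).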
